A study of Mus musculus with 16 samples.

Results

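The genes described here are 10 acute-phase and mucosal defence genes (Saa1, Saa3, Lrg1, Itih4, Hp, Cfb, C3, Lcn2, Slpi and Timp1) among the 20725 named genes of an array study of mouse alveolar epithelial type II (AT2) cells. A member is any array feature whose annotated symbol is on that list, and 10 of 10 members were measured by 21 of the 62976 features. The feature with the highest mean over the 16 samples stands for its gene. The list was drawn up with results of these data known. Saa3, Cfb, Lcn2, Saa1, Itih4 and Lrg1 were picked because they had the lowest changes in Fgf10+/- hyperoxia, and Itih4 was also known as a gene lower in wild-type hyperoxia. The values that involve Fgf10+/- samples are therefore descriptions without a test, and the test of the members is hyperoxia against normoxia in the wild type.

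RNA came from AT2 cells of pups at postnatal day 3 and was hybridised to single-colour Cy3 arrays. The sample titles give 2 Fgf10+/- hyperoxia, 4 Fgf10+/- normoxia, 6 wild-type hyperoxia and 4 wild-type normoxia samples, whereas the design text of the series speaks of 4 in each group, and the titles were followed. Fgf10+/- pups are heterozygous for Fgf10, the gene of fibroblast growth factor 10, a growth factor made by lung mesenchyme that acts on the epithelium. Hyperoxia was 85% oxygen from birth to day 3, and normoxia samples came from pups without it. Strain, the way the cells were purified and any pooling of pups are given nowhere in the labels used here, so the p-values measure the spread between these samples. The whole Fgf10+/- response to oxygen rests on 2 hyperoxia samples. Fgf10 itself read low in these epithelial samples, at 4.76 to 5.38 in Fgf10+/- hyperoxia, 4.02 to 4.77 in Fgf10+/- normoxia, 4.71 to 5.45 in wild-type hyperoxia and 4.27 to 5.89 in wild-type normoxia (log2 intensity), and the overlapping groups give no check of the genotype labels.

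The acute-phase response is a change in secreted proteins after injury or infection, best known from liver and also made by epithelia. Interleukin-6 family cytokines act on it through STAT3, and interleukin-1 and tumour necrosis factor act through NF-kB and C/EBP transcription factors. In the airways and alveoli the same programme overlaps with mucosal defence: lipocalin 2 withholds iron from bacteria, complement opsonises them, and protease inhibitors shield tissue from leukocyte enzymes.

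The promoters of Saa1, Saa2, Saa3, Lcn2 and Itih4 are printed because C/EBP and STAT factors are the textbook inducers of these genes, and because Saa2, whose feature was dim, is a near copy of Saa1. Each line holds the 250 bases before the gene's start from RefSeq on GRCm38.p6, 5′ to 3′ on the gene's own strand. Capitals mark matches to the C/EBP letters TTGCNNAA or the STAT letters TTCNNNGAA, searched on both strands. The windows are chr7:46742981-46743230 (minus strand) for Saa1, chr7:46751583-46751832 (plus) for Saa2, chr7:46715677-46715926 (minus) for Saa3, chr2:32387740-32387989 (minus) for Lcn2 and chr14:30886226-30886475 (plus) for Itih4.
Saa1: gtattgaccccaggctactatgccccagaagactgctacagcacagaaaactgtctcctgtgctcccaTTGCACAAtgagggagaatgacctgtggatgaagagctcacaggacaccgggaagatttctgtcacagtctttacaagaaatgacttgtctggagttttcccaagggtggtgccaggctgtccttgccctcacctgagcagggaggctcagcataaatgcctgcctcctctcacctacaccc
Saa2: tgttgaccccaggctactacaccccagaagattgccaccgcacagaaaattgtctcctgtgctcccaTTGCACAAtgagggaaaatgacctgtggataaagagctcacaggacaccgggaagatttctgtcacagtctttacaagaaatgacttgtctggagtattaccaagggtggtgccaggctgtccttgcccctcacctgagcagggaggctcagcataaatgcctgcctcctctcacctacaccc
Saa3: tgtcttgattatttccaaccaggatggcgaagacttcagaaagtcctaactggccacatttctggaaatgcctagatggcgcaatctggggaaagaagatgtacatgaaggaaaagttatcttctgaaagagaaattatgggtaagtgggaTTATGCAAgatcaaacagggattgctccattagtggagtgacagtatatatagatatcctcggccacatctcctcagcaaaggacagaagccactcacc
Lcn2: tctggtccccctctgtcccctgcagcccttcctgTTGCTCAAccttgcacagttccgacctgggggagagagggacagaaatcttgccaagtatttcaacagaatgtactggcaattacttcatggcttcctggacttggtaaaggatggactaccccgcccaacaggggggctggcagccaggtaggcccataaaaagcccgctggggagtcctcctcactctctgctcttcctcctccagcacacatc
Itih4: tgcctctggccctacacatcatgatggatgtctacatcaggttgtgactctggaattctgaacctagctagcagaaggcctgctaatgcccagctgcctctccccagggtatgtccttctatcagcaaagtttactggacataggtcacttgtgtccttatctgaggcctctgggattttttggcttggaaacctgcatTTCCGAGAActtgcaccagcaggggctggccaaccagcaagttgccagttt

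Promoters were listed for 8 of the 10 members, with Cfb and Hp not listed. The C/EBP letters were present in 5 of the 8 (Saa1, Saa3, Lcn2, C3 and Slpi), against 9.55% of the 27025 listed promoters over the same 250 bases. The STAT letters were present in Itih4 alone among the 8, against 7.18% of promoters. The NF-kB consensus, searched on both strands, matched 0 of these 8 windows and 7.01% of promoters, which says only that those letters are not in the windows. The matches in Saa1 and Saa2 are the same 8 letters, and the 2 windows were identical at 238 of 251 aligned columns (94.8%). Saa1 and Saa3 windows were identical at 52.5% of aligned columns. Saa1 and Saa2 start 8853 bases apart and point away from each other, and Saa3 starts 27304 bases from Saa1.

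Levels are log2 intensities as normalised by the authors, so a difference of 1 is a doubling, and a value near 4.34, the median of all values in the table, is called near background here. No detection calls, slides or scan dates came with the values, so batch was not tested, and the number of arrays limits the precision. Markers of AT2 cells were high on every array. Surfactant protein C, Sftpc, lay between 15.95 and 15.98 on every array, at the top of the scale, and the mean of 10 AT2 markers was 11.26 to 12.46 in Fgf10+/- hyperoxia, 11.68 to 12.54 in Fgf10+/- normoxia, 11.67 to 12.53 in wild-type hyperoxia and 12.23 to 12.54 in wild-type normoxia. Airway club cell markers were also strong, with Scgb1a1 between 15.13 and 15.98. In RNA from many cells, fewer cells of a type and less RNA per cell cannot be told apart.

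Some arrays stood apart in the markers of other cells. Wild-type normoxia replicate 1 had the highest mean of 12 fibroblast and smooth muscle markers, 10.19, the top of a wild-type normoxia range that began at 7.59. It was also the lowest of the 4 wild-type normoxia arrays for 7 of the 10 members. Means of 10 thymocyte markers were at most 4.31 in Fgf10+/- hyperoxia, against up to 6.38 in Fgf10+/- normoxia, and at most 4.42 in wild-type hyperoxia, against up to 6.43 in wild-type normoxia. Hepatocyte markers were near background, with 10-gene means of 4.10 to 4.24 in Fgf10+/- hyperoxia, 4.09 to 4.20 in Fgf10+/- normoxia, 4.02 to 4.44 in wild-type hyperoxia and 3.88 to 4.40 in wild-type normoxia. Albumin, Alb, read 4.36 to 6.33.

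Across the 4 groups most members followed a shared order. Fgf10+/- normoxia had the highest mean for 10 of 10 members and the highest single array for 10 of 10. Wild-type normoxia was second for 8 members, the exceptions being Slpi and Timp1, where wild-type hyperoxia was second. Fgf10+/- hyperoxia was lowest for 6 (Saa1, Saa3, Lcn2, Itih4, Cfb and C3), wild-type hyperoxia for Lrg1 and Hp, and wild-type normoxia for Slpi and Timp1. Saa3, Cfb, Lcn2, Saa1, Itih4 and Lrg1 were picked for low changes in Fgf10+/- hyperoxia. That favours high Fgf10+/- normoxia and low Fgf10+/- hyperoxia values, so nothing is read from these ranks. The Fgf10+/- hyperoxia and wild-type hyperoxia arrays overlapped for 10 of 10 members, as they did for 93% of all genes.

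**Figure D1:**
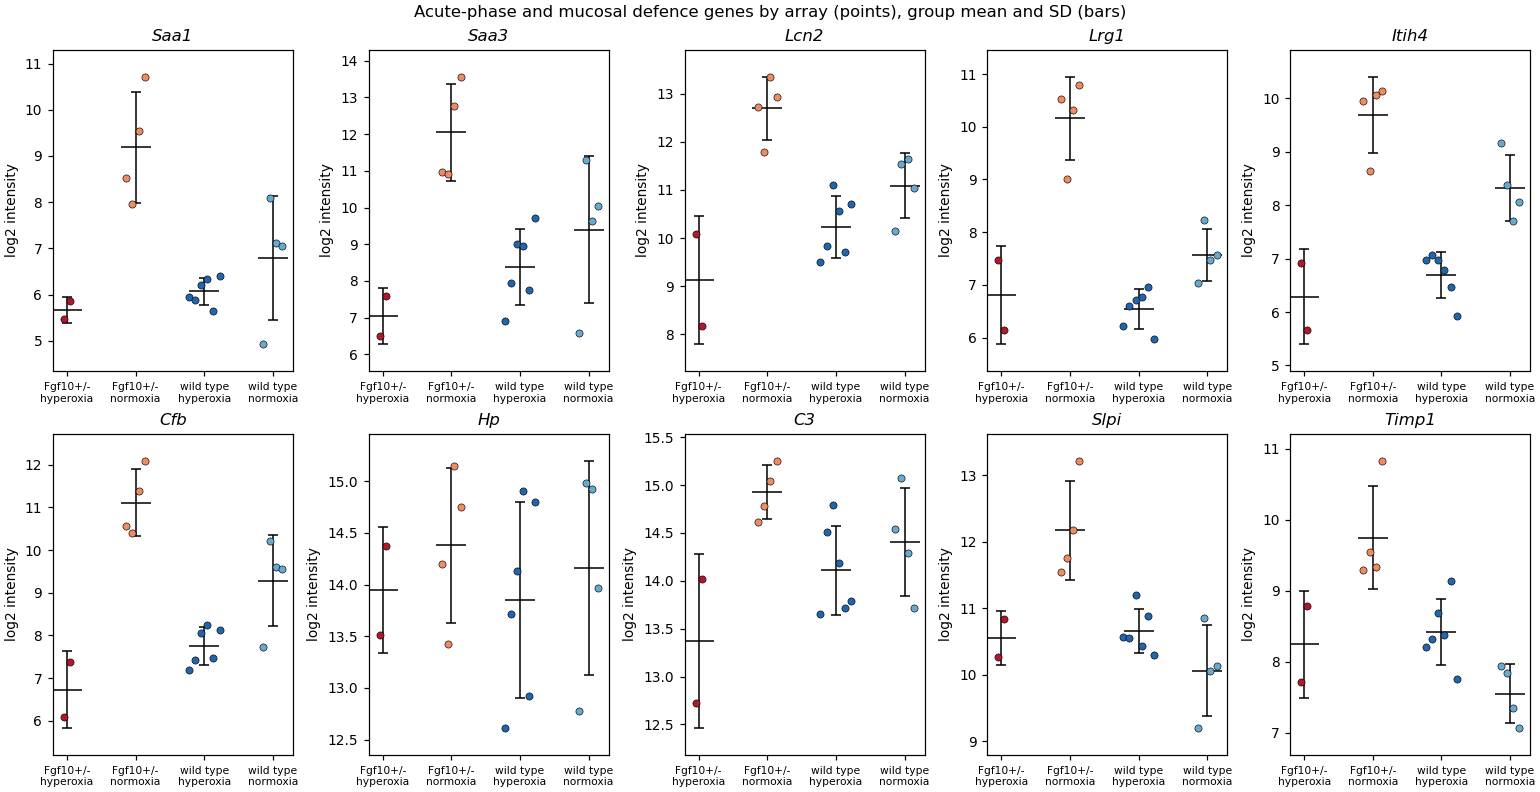
Log2 intensity (y axis) of the 10 members on each of the 16 arrays (points), with group mean and SD (bars), for Fgf10+/- hyperoxia (n = 2), Fgf10+/- normoxia (n = 4), wild-type hyperoxia (n = 6) and wild-type normoxia (n = 4); each panel has its own y scale. The Fgf10+/- normoxia mean is the highest in 10 of 10 panels, and wild-type normoxia replicate 1 is the low point of its group for Saa1, Saa3, Lcn2, Lrg1, Cfb, Hp and Slpi.

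Serum amyloid A proteins bind lipoproteins and are the most inducible acute-phase reactants, with Saa3 the form made outside the liver in mice. Saa3 read 6.49 and 7.59 in Fgf10+/- hyperoxia, against 10.97, 10.91, 12.76 and 13.56 in Fgf10+/- normoxia. It read 6.89 to 9.71 with a median of 8.44 in wild-type hyperoxia, against 6.58, 11.30, 9.65 and 10.04 in wild-type normoxia. Both Fgf10+/- hyperoxia arrays lay below all 4 Fgf10+/- normoxia arrays, while the wild-type groups overlapped through the low normoxia replicate 1. The Fgf10+/- difference was -5.01, or 32.2-fold lower in hyperoxia. In the wild type the difference was -1.02 ± 0.78 (SE), and it did not pass (limma, Benjamini-Hochberg adjusted p = 0.53). Without wild-type normoxia replicate 1 it was -1.96 (limma adjusted p = 0.126), and without replicate 2 it was -0.38 (adjusted p = 0.866).

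Saa1, the circulating form, read 5.46 and 5.87 in Fgf10+/- hyperoxia, against 8.52, 7.97, 9.53 and 10.71 in Fgf10+/- normoxia. Its wild-type hyperoxia arrays read 5.64 to 6.40 with a median of 6.08, against 4.92, 8.09, 7.12 and 7.04 in wild-type normoxia. The 6 wild-type hyperoxia arrays were close together, above the 1 low normoxia array and below the other 3. The difference was -3.52 in Fgf10+/- and -0.72 ± 0.53 (SE) in the wild type (limma adjusted p = 0.506). The wild-type value was -1.35 without normoxia replicate 1 (limma adjusted p = 0.123) and -0.29 without replicate 2 (adjusted p = 0.846). The Saa2 feature read 2.64 to 4.90 on the 16 arrays, at or near background. Whether the Saa1 feature also binds Saa2 transcripts cannot be told apart here.

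Lrg1, leucine-rich alpha-2-glycoprotein, is secreted and modulates TGF-beta signalling. It read 7.47 and 6.15 in Fgf10+/- hyperoxia, against 10.53, 9.01, 10.31 and 10.79 in Fgf10+/- normoxia. Wild-type hyperoxia gave 5.97 to 6.97 with a median of 6.66, against 7.03, 8.23, 7.47 and 7.57 in wild-type normoxia. In both genotypes every hyperoxia array was below every normoxia array, and the nearest wild-type arrays were 0.06 apart. The difference was -3.35 in Fgf10+/- and -1.03 ± 0.35 (SE) in the wild type, which did not pass over all genes (limma adjusted p = 0.124).

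Itih4 is an inter-alpha-trypsin inhibitor heavy chain, a plasma protein that rises in the acute phase. It read 6.92 and 5.66 in Fgf10+/- hyperoxia, against 9.95, 8.63, 10.06 and 10.14 in Fgf10+/- normoxia. Wild-type hyperoxia gave 5.93 to 7.06 with a median of 6.88, against 9.16, 8.38, 7.70 and 8.06 in wild-type normoxia. Every hyperoxia array was below every normoxia array in both genotypes, and wild-type normoxia replicate 1 was here the highest of its group, not the lowest. Itih4 was the 1 member that passed in the wild type: its level fell by 1.62 in hyperoxia with an SE of 0.36 (adjusted p = 0.0188, limma), and 6 of 6 hyperoxia arrays were lower. That call was lost without normoxia replicate 1 (-1.35, adjusted p = 0.0581 by limma) and without replicate 2 (-1.61, adjusted p = 0.063). Because this change was already known when the list was made, it is no independent support. A second, dimmer Itih4 feature with a mean of 4.95 differed by -2.12 in Fgf10+/- and by -1.18 in the wild type.

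Hp, haptoglobin, binds free haemoglobin and is also a product of airway secretory cells. It read 13.51 and 14.38 in Fgf10+/- hyperoxia, against 14.20, 13.42, 15.15 and 14.75 in Fgf10+/- normoxia. Its wild-type hyperoxia arrays gave 12.61 to 14.90 with a median of 13.93, against 12.77, 14.99, 14.92 and 13.97 in wild-type normoxia. All 4 groups overlapped, and the range within each, 0.86 or more, was wider than the largest difference between group means, 0.53. The differences were -0.44 in Fgf10+/- and -0.31 ± 0.52 (SE) in the wild type (limma adjusted p = 0.801), and Hp was the only member whose Fgf10+/- groups overlapped.

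Complement factor B, Cfb, supplies the serine protease of the alternative pathway convertase. It read 6.09 and 7.37 in Fgf10+/- hyperoxia, against 10.57, 10.39, 11.39 and 12.10 in Fgf10+/- normoxia. In wild-type hyperoxia Cfb read 7.18 to 8.24 with a median of 7.77, against 7.74, 10.22, 9.60 and 9.56 in wild-type normoxia. The Fgf10+/- arrays were 3.02 or more apart between conditions. In the wild type only normoxia replicate 1 lay within the hyperoxia range. The difference was -4.38 in Fgf10+/-, or 20.9-fold, and -1.53 ± 0.44 (SE) in the wild type (limma adjusted p = 0.0717). Without wild-type normoxia replicate 1 the wild-type difference was -2.04 and passed (limma adjusted p = 0.00817).

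C3 is the central complement protein that the convertase cleaves. It read 12.73 and 14.02 in Fgf10+/- hyperoxia, against 14.61, 14.78, 15.05 and 15.26 in Fgf10+/- normoxia. Among wild-type hyperoxia arrays C3 read 13.66 to 14.79 with a median of 13.99, against 14.54, 15.07, 14.29 and 13.72 in wild-type normoxia. The Fgf10+/- groups did not overlap and the wild-type groups did. Differences were -1.55 in Fgf10+/- and -0.30 ± 0.31 (SE) in the wild type (limma adjusted p = 0.667). Its 11 features gave -1.70 to -1.54 in Fgf10+/- and -0.30 to -0.13 in the wild type, a spread of at most 0.16 between features in either genotype.

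Lcn2 binds bacterial siderophores and is secreted by airway and alveolar epithelium and by neutrophils. It read 10.08 and 8.18 in Fgf10+/- hyperoxia, against 12.72, 11.79, 13.34 and 12.94 in Fgf10+/- normoxia. Its wild-type hyperoxia arrays read 9.49 to 11.11 with a median of 10.20, against 10.15, 11.53, 11.64 and 11.03 in wild-type normoxia. The 2 Fgf10+/- hyperoxia arrays were 1.89 apart, and both were below all Fgf10+/- normoxia arrays. The difference was -3.57 in Fgf10+/- and -0.85 ± 0.43 (SE) in the wild type (limma adjusted p = 0.306). The mean of 11 neutrophil markers was 6.60 to 6.72 in Fgf10+/- hyperoxia, 6.34 to 6.54 in Fgf10+/- normoxia, 6.44 to 7.71 in wild-type hyperoxia and 6.35 to 7.44 in wild-type normoxia. This mean was not highest where Lcn2 was highest, but its genes went different ways. Mpo read 6.88 to 7.96 in Fgf10+/- normoxia, against 5.11 to 5.53 in Fgf10+/- hyperoxia. S100a8 read 8.02 to 8.40 and 8.87 to 9.68 in the same groups. The part of neutrophils in the Lcn2 differences was not tested.

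Slpi, the secretory leukocyte protease inhibitor, neutralises neutrophil elastase in airway fluid. It read 10.26 and 10.84 in Fgf10+/- hyperoxia, against 11.54, 11.76, 12.17 and 13.22 in Fgf10+/- normoxia. In wild-type hyperoxia Slpi read 10.30 to 11.19 with a median of 10.56, against 9.19, 10.86, 10.06 and 10.13 in wild-type normoxia. All 6 wild-type hyperoxia arrays were above 3 of the 4 normoxia arrays, which is the opposite side from Fgf10+/-. The difference was -1.62 in Fgf10+/- and 0.59 ± 0.33 (SE) in the wild type (limma adjusted p = 0.371). Without wild-type normoxia replicate 1, the array at 9.19, the wild-type difference was 0.30 (limma adjusted p = 0.68).

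Timp1, the tissue inhibitor of metalloproteinases 1, limits matrix breakdown and is induced by the same cytokines. It read 7.71 and 8.78 in Fgf10+/- hyperoxia, against 9.29, 9.54, 9.34 and 10.83 in Fgf10+/- normoxia. For wild-type hyperoxia Timp1 readings were 7.76 to 9.14 with a median of 8.35, against 7.93, 7.84, 7.35 and 7.06 in wild-type normoxia. The lowest wild-type hyperoxia array lay within the normoxia range and the other 5 were above it. The difference was -1.50 in Fgf10+/- and 0.87 ± 0.33 (SE) in the wild type (limma adjusted p = 0.178).

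In wild-type hyperoxia against normoxia, then, 1 of 10 members passed, and it was lower, where 3.13% of the 20725 genes were called in either direction and 1.36% were called lower. That member was Itih4, already known from this contrast when the list was made, and no other member passed. Itih4 also enters the unadjusted, negative and non-overlap counts that follow. An unadjusted p under 0.05 was reached by 4 members, Itih4, Cfb, Lrg1 and Timp1, and by 18.2% of all genes. The difference was negative for 8 of 10 members with a median of -0.79, beside 58.3% of all genes negative and a median of -0.08. Lrg1 and Itih4 had all 6 hyperoxia arrays below all 4 normoxia arrays, and 4.02% of all genes did. The arrays of 9 of 10 members had a smaller SD in wild-type hyperoxia than in wild-type normoxia, where replicate 1 stood low for 7 members.

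In Fgf10+/- hyperoxia against normoxia the difference was negative for 10 of 10 members with a median of -3.38, where all genes had a median of -0.04. In 9 of 10 members both hyperoxia arrays were below all 4 normoxia arrays, beside 13.6% of all genes, a share that is high because the hyperoxia group has only 2 arrays. This contrast chose 6 of the members, so nothing is read from these counts. The 4 members not picked from the 6 lowest changes differed by -1.62 (Slpi), -1.55 (C3), -1.50 (Timp1) and -0.44 (Hp). Leaving out either hyperoxia array or any 1 normoxia array kept 10 of 10 differences negative, with Saa3 between -5.56 and -4.46 and Hp between -0.87 and -0.01.

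**Figure D2:**
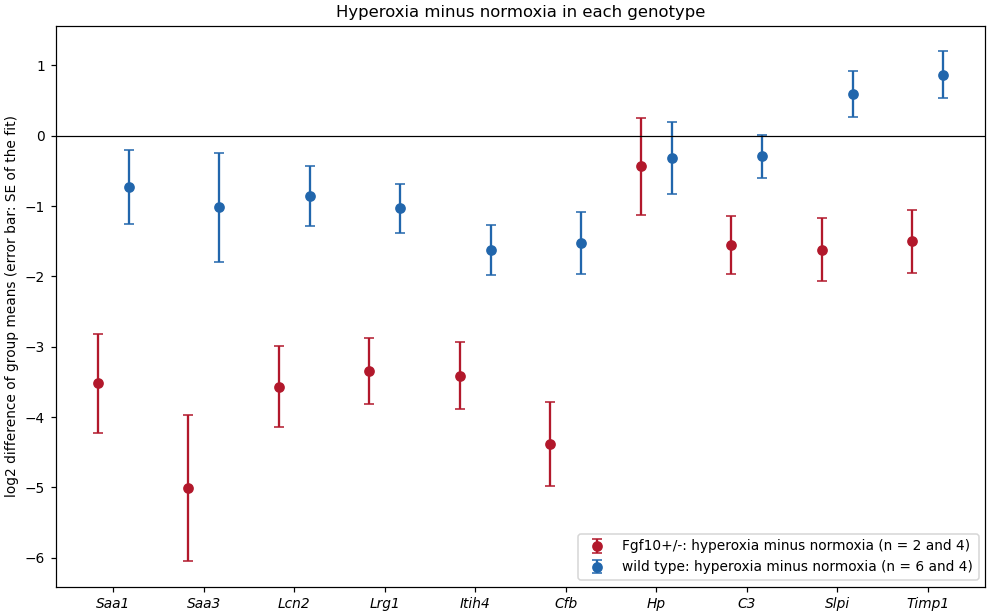
Log2 difference of group means, hyperoxia minus normoxia (y axis), for each member in Fgf10+/- (red, left) and in the wild type (blue, right), with the standard error of the fit. The Fgf10+/- differences lie between -5.01 and -0.44 and the wild-type differences between -1.62 and 0.87, with Slpi and Timp1 on opposite sides of 0.

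Fgf10+/- minus wild type was positive in normoxia for every member and mostly negative in hyperoxia. In normoxia it was positive for 10 of 10, from 2.66 for Saa3, 2.59 for Lrg1, 2.39 for Saa1, 2.20 for Timp1 and 2.11 for Slpi through 1.83 for Cfb, 1.61 for Lcn2 and 1.37 for Itih4 to 0.52 for C3 and 0.22 for Hp. Over all genes that difference was negative for 52.1%, with a median of -0.015. In 5 members (Lcn2, Lrg1, Cfb, Slpi and Timp1) all 4 Fgf10+/- arrays were above all 4 wild-type arrays, beside 1.42% of all genes. Saa3, Cfb, Lcn2, Saa1, Itih4 and Lrg1 were picked from a contrast that uses these Fgf10+/- normoxia arrays, so nothing is read from these normoxia counts. Without wild-type normoxia replicate 1 the Saa3 and Saa1 differences were 1.72 and 1.77. Without that array Hp turned to -0.25, and without Fgf10+/- normoxia replicate 3 to -0.04. In hyperoxia Fgf10+/- minus wild type ran from -1.33 for Saa3 to 0.27 for Lrg1, and was negative for 8 of 10, beside 47.3% of all genes. Leaving out 1 array turned the sign of that difference for 5 of the 10: Lrg1 (-0.40), Slpi (0.18) and Timp1 (0.37) without Fgf10+/- hyperoxia replicate 1, and Itih4 (0.21) and Hp (-0.34) without replicate 2. Slpi also turned to 0.005 without wild-type hyperoxia replicate 3, and Hp to -0.15 and -0.09 without wild-type hyperoxia replicates 1 and 5. The difference between the oxygen responses of the genotypes was negative for 10 of 10 members, with a median of -2.34 and a range from -3.99 for Saa3 to -0.12 for Hp. Over all genes it was negative for 46.2%, with a median of 0.04. It contains the Fgf10+/- oxygen contrast that chose members, and the genotype difference in hyperoxia uses the same Fgf10+/- arrays. Nothing is read from either count. The comparisons share the same samples: the high Fgf10+/- normoxia values enter both the genotype and the oxygen differences.

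A list of 33 genes held cytokines, receptors and transcription factors of acute-phase induction together with feedback regulators such as Nfkbia and Socs3. Of these, 2 fell and 0 rose in wild-type hyperoxia. The share of all genes called was 3.13% in the wild type and 2.45% in Fgf10+/-. Both that fell encode I-kappa-B family proteins, which bind NF-kB subunits, so neither call is by itself a fall of an inducer. Bcl3, an atypical I-kappa-B protein, was 8.37 ± 0.15 in hyperoxia (SD, n = 6) and 9.28 ± 0.10 in normoxia (n = 4), a fall of 0.91 (limma adjusted p = 0.00423). Nfkbia, the I-kappa-B alpha gene that NF-kB itself induces, was 12.44 ± 0.11 and 13.13 ± 0.34 in the same groups, with a change of -0.70 (limma adjusted p = 0.0407) that passed in only 2 of the 10 fits that left out 1 of these samples, with -0.54 without normoxia replicate 3. In Fgf10+/- hyperoxia 1 of the 33 fell, again Nfkbia, at 12.24 ± 0.13 (n = 2) against 13.33 ± 0.24 (n = 4), a change of -1.09 (limma adjusted p = 0.024). That call was lost without normoxia replicate 1 or 4 (-1.03 and -1.08). Without hyperoxia replicate 1 or 2, which leaves 1 array in that group, the change was -0.99 or -1.18. An unadjusted limma p under 0.05 was reached by 9 of 33 in Fgf10+/-, beside 16.7% of all genes. In the wild type 5 of 33 reached it, beside 18.2%. The list median was -0.22 in Fgf10+/- and -0.12 in the wild type. The all-gene medians were -0.04 and -0.08, and turn to 0.06 and 0.03 when each array is centred on its own median.

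Among 20 other acute-phase genes, 0 passed in the wild type by limma and 4 had an unadjusted p under 0.05, as did 18.2% of all genes. Most of the 20 read near background, among them Saa2, Crp, Fga and Hamp with means of 4.07, 3.77, 4.04 and 4.11. Lbp, the lipopolysaccharide-binding protein, differed there by -0.75 (limma adjusted p = 0.145), and Cp, the ferroxidase ceruloplasmin, by -0.36 (adjusted p = 0.753). In Fgf10+/- hyperoxia 2 of 20 fell, and 7 of 20 had an unadjusted limma p under 0.05, beside 16.7% of all genes. Cp read 7.05 and 8.42 in hyperoxia, against 10.36, 9.39, 11.07 and 10.61 in normoxia (-2.62, limma adjusted p = 0.0447), and Lbp read 7.26 and 7.38 against 9.04, 8.74, 9.31 and 10.08 (-1.97, adjusted p = 0.0106). The groups did not overlap for either gene. Leaving out hyperoxia replicate 1 or 2 leaves 1 array in that group. The changes were then -1.94 and -3.31 for Cp and -1.91 and -2.03 for Lbp. The Cp call was lost without normoxia replicate 1, 3 or 4. A second Cp feature near background (mean 4.42) differed by -0.26.

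The other complement genes did not share one direction, with 12 of 23 negative in Fgf10+/- and 11 of 23 in the wild type. Several of them read near background. In the wild type 0 of 23 passed by limma (3 at an unadjusted p under 0.05, beside the same 18.2%), with Hc, the C5 gene, at 0.34 and C2, the classical pathway counterpart of factor B, at 0.09. In Fgf10+/- 1 of 23 fell: C1ra, a protease of the C1 complex, was 7.50 ± 0.68 in hyperoxia (n = 2) and 9.17 ± 0.43 in normoxia (n = 4), a change of -1.67 (limma adjusted p = 0.041), with -1.57 in a second feature. The call was lost without normoxia replicate 1 or 4 (-1.64 and -1.49). Without hyperoxia replicate 1 or 2, which leaves 1 array in that group, the change was -1.19 or -2.15. In Fgf10+/- an unadjusted limma p under 0.05 was reached by 7 of 23, beside 16.7% of all genes. Some brighter genes, named after their values were seen, were lower there without passing. They were C4b (-1.80), C1s1 (-1.07), C2 (-1.04) and Serping1 (-0.88), with limma adjusted p = 0.0723, 0.217, 0.216 and 0.379. Hc and Cd55, also bright, differed by 0.01 and 0.48. The list median, with the near-background genes included, was -0.03 in Fgf10+/- and 0.04 in the wild type.

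Of 23 other mucosal defence genes 1 passed as a rise in each genotype and 0 passed as a fall (limma). Pigr, the polymeric immunoglobulin receptor that carries IgA across epithelium, was 13.97 ± 0.40 in Fgf10+/- hyperoxia (n = 2) and 11.90 ± 0.28 in Fgf10+/- normoxia (n = 4), a change of 2.07 (limma adjusted p = 0.0305). In the wild type it was 13.91 ± 0.65 in hyperoxia (n = 6) and 11.47 ± 0.76 in normoxia (n = 4), a change of 2.44 (adjusted p = 8.56e-04). A second Pigr feature with a mean of 5.15 went the other way, by -2.64 in Fgf10+/- and -0.69 in the wild type, so the direction of Pigr depends on the feature. The Fgf10+/- call was lost without normoxia replicate 1, 2 or 4 (2.10, 1.93 and 2.09). Without hyperoxia replicate 1 or 2, which leaves 1 array in that group, the change was 1.79 or 2.35. The list's changes were negative for 20 of 23 genes in Fgf10+/- (median -0.65) and 13 of 23 in the wild type (median -0.29). An unadjusted limma p under 0.05 was reached by 11 of 23 in Fgf10+/-, beside 16.7% of all genes. In the wild type 7 of 23 reached it, beside 18.2%. The largest Fgf10+/- changes, named after their values were seen, were falls: Scgb3a1 -5.05, Reg3g -4.82, Ltf -3.87 and Bpifa1 -3.60. They did not pass (limma adjusted p = 0.189, 0.207, 0.0529 and 0.149).

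Among 11 other protease inhibitors Spink5, a Kazal-type inhibitor, rose in the wild type, at 9.90 ± 0.50 in hyperoxia (n = 6) and 8.25 ± 0.49 in normoxia (n = 4), a change of 1.65 (limma adjusted p = 0.00519). In Fgf10+/- 0 of 11 passed by limma. The genes with an unadjusted p under 0.05 there (2 of 11, beside 16.7% of all genes) were Spink5, at 1.38 (limma adjusted p = 0.0852), and Serpinb1a, named after its value was seen, at -1.02 (adjusted p = 0.251). The 2 brightest genes of that list, Timp2 and Cst3, differed by -0.43 and 0.10. Over the 5 lists together, 1 of 110 genes rose and 4 fell in Fgf10+/- hyperoxia, where 2.45% of all genes were called. An unadjusted limma p under 0.05 was reached by 36 of 110 there, beside 16.7% of all genes. These Fgf10+/- calls rest on 2 hyperoxia arrays, and fits with 1 of them left out were not read for calls. In wild-type hyperoxia 2 rose and 2 fell, with 21 of 110 at such an unadjusted p, beside 18.2% of all genes. Between genotypes 0 of 110 were called in normoxia by limma (19 at an unadjusted p under 0.05), where 0.00965% of all genes were called and 6.03% had such a p. These were 2 genes, Oasl2 and the member Lrg1, and since Fgf10+/- values chose Lrg1, nothing is read from its call. In hyperoxia 0 of 110 were called by limma (4 unadjusted) beside 0% of all genes (4.37% unadjusted). For the difference between the oxygen responses 0 of 110 were called (11 unadjusted) beside 0.00965% of all genes (4.11% unadjusted).

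**Figure D3:**
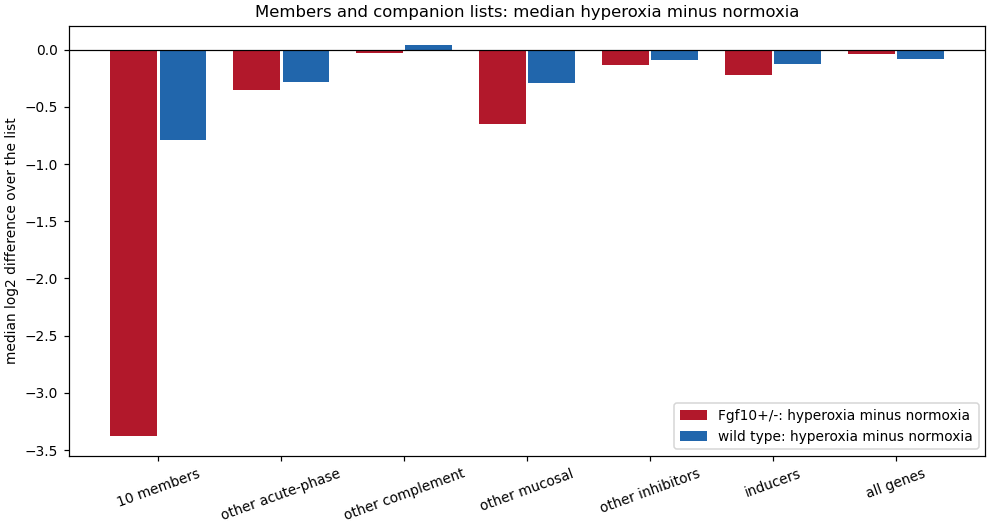
Median log2 difference, hyperoxia minus normoxia (y axis), over the 10 members, the 5 companion lists and all 20725 genes, in Fgf10+/- (red, left) and in the wild type (blue, right). The members' medians are -3.38 and -0.79, and those of the companion lists lie between -0.65 and 0.04. The members include genes picked for low Fgf10+/- changes. Most of the other acute-phase genes and several of the other complement genes read near background.

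The members were also compared array by array after each group's mean was removed, which takes out the differences that chose them. Over the 16 arrays 38 of 45 pairs had a positive Pearson r, with a median of 0.40 and a range of -0.29 to 0.96. After Benjamini-Hochberg adjustment over the 45 pairs, 8 passed a permutation test that shuffled arrays within groups 100000 times. Saa1, Saa3, Cfb and Hp formed 6 of the 8. Saa3 and Cfb had r = 0.96 and rho = 0.85 (permutation p = 4e-05 and 2.6e-04, adjusted 0.00135 and 0.00292), Saa1 and Cfb r = 0.93 and rho = 0.87, and Saa1 and Saa3 r = 0.91 and rho = 0.91. Hp had r = 0.86 with Saa3, 0.84 with Cfb and 0.74 with Saa1. These 6 passed by rho too, and without the 2 arrays farthest from the median their r was 0.56 to 0.94.

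Slpi joined Saa1 (r = 0.83, permutation p = 0.0059, adjusted 0.0332) and Cfb (r = 0.79, p = 0.00503, adjusted 0.0323), but neither pair passed by rho (0.62 and 0.71, adjusted p = 0.169 and 0.0956 by permutation). In the 6 wild-type hyperoxia arrays alone both had a negative r, -0.36 and -0.08. Without wild-type normoxia replicate 1, which was low in Saa1, Saa3 and Cfb together, 8 pairs passed, of which 6 were the Saa1, Saa3, Cfb and Hp pairs (r = 0.61 to 0.93). The other 2 were then Slpi with Timp1 (r = 0.86, adjusted permutation p = 0.0188) and Slpi with C3 (r = 0.64, adjusted p = 0.0452). In the 10 wild-type arrays 10 pairs passed, and in the 6 wild-type hyperoxia arrays 0 of 45 did by the permutation test, with 7 at an unadjusted p under 0.05. With 6 arrays there are so few orderings that a single pair could hardly pass after adjustment over 45 pairs. Nothing is read from that 0. The r of the 6 pairs among Saa1, Saa3, Cfb and Hp was 0.80 to 0.94 in those 6 arrays. Itih4 passed with no other member: its r was -0.27 with Cfb, -0.26 with Saa3 and 0.57 with Lrg1 (adjusted permutation p = 0.208). With wild-type normoxia replicate 1 left out, they became 0.05, 0.08 and 0.85 (adjusted permutation p = 0.053 for Lrg1).

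**Figure D4:**
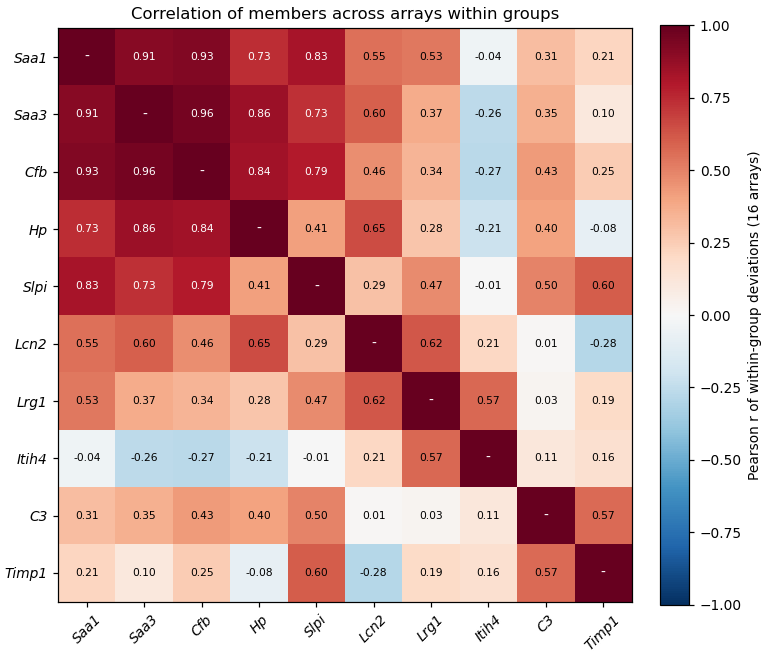
Pearson r between members (colour and number) of deviations from the group mean over 16 arrays, with genes on both axes. Saa1, Saa3, Cfb and Hp form a block with r of 0.74 to 0.96, while Itih4 has r between -0.27 and 0.21 with all members other than Lrg1 (0.57).

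Marker lists moved with single members within groups, given here as descriptions over the same 16 arrays, which share the authors' normalisation. The mean of 9 club cell markers (the list without Hp itself) had r = 0.88 with Hp, 0.70 with Cfb and 0.69 with Saa3. The mean was 9.28 to 11.07 in Fgf10+/- hyperoxia, 11.88 to 12.99 in Fgf10+/- normoxia, 8.28 to 12.64 in wild-type hyperoxia and 10.30 to 12.81 in wild-type normoxia. The dimmest of the 9, Bpifa1, averaged 6.43 over the 16 arrays. Scgb3a1, Bpifa1 and Reg3g are also among the mucosal defence genes above. In wild-type hyperoxia Muc5b read 4.85 to 12.20 and Reg3g 4.77 to 12.65, while Scgb1a1 read 15.13 to 15.94 and Cyp2f2 12.72 to 15.03. Club cell content and the level of such genes within cells cannot be told apart in this mean. With this mean as a covariate, a setting chosen after the data were seen like the other marker settings given here, the wild-type difference was -0.03 for Saa3, -0.24 for Saa1, -0.98 for Cfb and 0.51 for Hp, against -1.82 for Itih4, which still passed (limma adjusted p = 0.0209). With the part that follows the club mean removed, 6 pairs passed, among them Saa3 and Cfb (r = 0.92) and Cfb and Slpi (r = 0.93), and none with Hp, whose r was 0.73 with Saa3, 0.70 with Saa1 and 0.67 with Cfb (adjusted permutation p = 0.102, 0.135 and 0.138).

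C3 followed the mean of 8 mesothelial markers (r = 0.89), which was 8.27 to 8.96 in Fgf10+/- hyperoxia, 9.50 to 10.15 in Fgf10+/- normoxia, 8.29 to 9.38 in wild-type hyperoxia and 8.79 to 9.70 in wild-type normoxia. Timp1 (r = 0.64) and Slpi (0.55) came next with that list. Its part in these differences was not tested. The mean of the AT2 markers had r = 0.73 with Itih4, 0.66 with Lrg1 and 0.65 with Lcn2. Fibroblast and smooth muscle markers ran the other way from Saa3 (r = -0.75), Saa1 (-0.70) and Cfb (-0.70), and with their mean as a covariate the wild-type differences were -0.30, -0.28 and -1.16 for these genes and -1.79 for Itih4 (limma adjusted p = 0.0127). Removing the part that follows this mean left 9 pairs past the threshold, with r = 0.92 for Saa3 and Cfb. Macrophage markers (12-gene mean 6.27 to 6.38 in Fgf10+/- hyperoxia, 5.73 to 6.10 in Fgf10+/- normoxia, 6.58 to 7.37 in wild-type hyperoxia and 6.11 to 7.14 in wild-type normoxia) were lowest in the group where the members were highest. So were endothelial markers (10-gene mean 8.06 to 9.32 in Fgf10+/- hyperoxia, 7.37 to 7.84 in Fgf10+/- normoxia, 8.15 to 9.36 in wild-type hyperoxia and 8.13 to 8.63 in wild-type normoxia), which had r = -0.64 with Lcn2 within groups. The macrophage genes went different ways. Marco read 4.47 to 6.10 in Fgf10+/- normoxia, against 7.84 to 9.75 in wild-type hyperoxia. The brighter Lgals3 read 12.18 to 13.07 against 11.84 to 12.64 in the same groups, and Csf1r 9.41 to 10.05 against 9.20 to 9.57. The part of macrophages and endothelial cells in the members' differences was not tested.

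**Figure D5:**
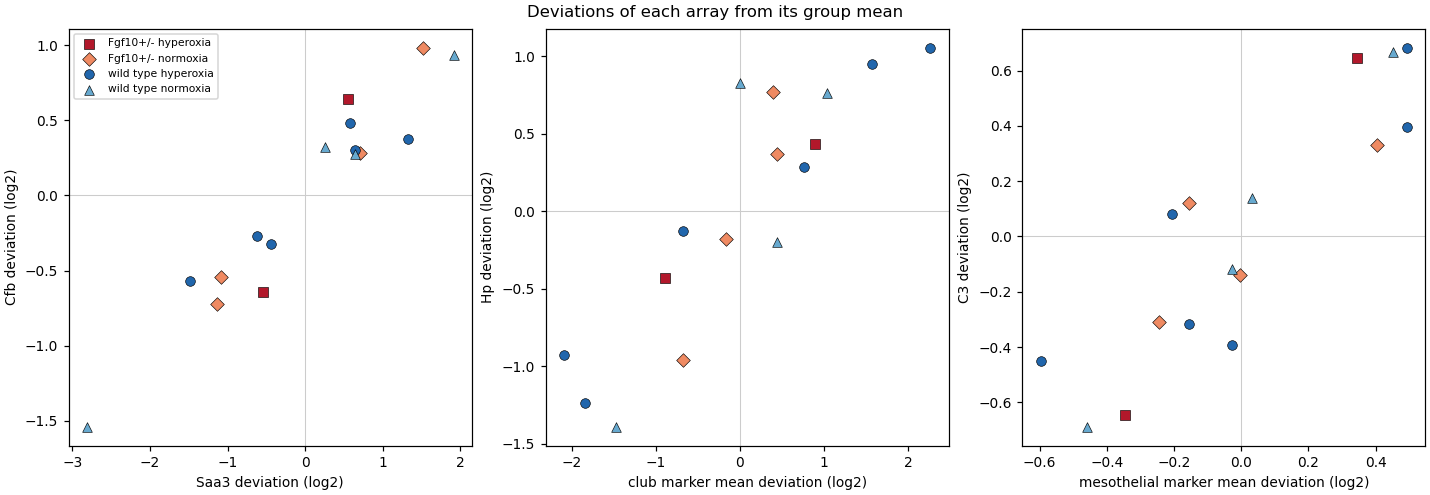
Deviation of each array from its group mean on the log2 scale, for Cfb against Saa3 (left), Hp against the club marker mean (middle) and C3 against the mesothelial marker mean (right), with r of 0.96, 0.88 and 0.89 over 16 arrays. In the left panel wild-type normoxia replicate 1 is the lowest point on both axes.

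Of the 20715 other genes, 81 followed the members' mean deviation with r over 0.8, while the median r was 0.02. Predicted and clone-named symbols were left out of the genes named next. The 10 most alike of the rest over the 16 arrays were Pnliprp1, a pancreatic lipase relative (r = 0.89), Misp, Drc3, Tmem176a, Rsph3b, Galk2, Trappc6a, the coxsackievirus and adenovirus receptor gene Cxadr, the protein C gene Proc and the histone gene H2al1o (r = 0.86). Group means of Pnliprp1 were 4.33 in Fgf10+/- hyperoxia, 6.01 in Fgf10+/- normoxia, 4.71 in wild-type hyperoxia and 6.21 in wild-type normoxia, so it was low in hyperoxia in both genotypes. Trappc6a kept group means between 10.44 and 10.60, and H2al1o averaged 4.03, near background. Fgf10+/- minus wild type in normoxia was -0.59 to 0.24 over these 10 genes.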

How the data were processed

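RNA of 16 AT2 samples was hybridised to single-colour Agilent arrays, per the labels' protocols. The deposited table holds log2 intensities that the authors had normalised between arrays: sorted values differ by at most 0.204 between arrays. The sources used here do not name the software, the background correction or the base of the logarithm, and log2 was taken from the range of values (-0.40 to 15.98). Depth does not apply, and the number of arrays limits the precision. Arrays correlated with r of 0.916 to 0.973, so none was a copy of another.

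Of 62976 features, 65 with a missing value were left out and 31439 with a single gene symbol were used. Symbols were updated through RefSeq GRCm38.p6 by accession (29036), symbol (2075) or synonym (349), and 5 were kept. Each of 20725 genes was represented by its brightest feature without a filter. limma 3.58.1 in R 4.3.3 (lmFit, contrasts.fit, eBayes) was fitted to all genes over 4 groups, with Benjamini-Hochberg adjustment over all genes and a threshold of 0.05, and the fit was tested on simulated data. Correlations, permutations and sequence searches used Python 3.11.15, numpy 2.4.6, scipy 1.17.1 and pandas 2.3.3. Promoter windows came from the RefSeq table.

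The members and lists were chosen with earlier results of these data known. Genes named are all members. From each companion list they are up to 3 called genes with the largest change, or, with no call, its 2 genes of highest mean. The 10 genes most like the members were also named, with predicted and clone-named symbols left out. Some further companion genes were named after their values were seen. Some genes of the lists were not analysed here. Deviations of same-numbered samples correlated with r of -0.16 to 0.24, not over 0.1 in every pair, so the numbers were not taken to pair samples. Alternatives were median centring, the mean of features, a filter on dim genes, the compared groups alone, array weights, a trended robust prior, the thymocyte mean as a covariate, the replicate block and leaving out each array. Leaving out wild-type normoxia replicates 1 and 4 together, and using club or fibroblast marker means as covariates, were chosen after seeing the data, as was leaving out each array from the correlations.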

Additional observations from a re-analysis of the deposited data

Results flagged for a closer look

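Within Fgf10+/- normoxia, a single array stood away from the other 3 for 2 members, a different array for each. The lowest Itih4 reading was 8.63 (replicate 2), where the other arrays read 9.95 to 10.14. The highest Timp1 reading was 10.83 (replicate 4), where the other arrays read 9.29 to 9.54. A gap this large is found by chance in about 1 in 20 groups, and 30 groups of 4 or 6 arrays were checked, with 2 found.

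The differences of Slpi and Timp1 had opposite signs in the 2 genotypes: every Fgf10+/- hyperoxia array was below the Fgf10+/- normoxia mean, and every wild-type hyperoxia array was above the wild-type normoxia mean. The hyperoxia minus normoxia difference in Fgf10+/- less that in the wild type was -2.22 for Slpi and -2.37 for Timp1 on the log2 scale. The wild-type changes, 0.59 and 0.87, did not pass (limma adjusted p = 0.371 and 0.178). The wild-type side of Slpi rests in part on normoxia replicate 1, its lowest array at 9.19. Without that array the wild-type changes were 0.304 for Slpi and 0.995 for Timp1 (limma adjusted p = 0.68 and 0.165). The differences between genotypes were not tested, since Fgf10+/- values chose the list.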

How the results depend on the processing

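In the wild type the members' count of 1 call became 2 (Itih4 and Cfb) when genes dimmer than the median value were left out and with array weights, 0 with the replicate block, and 0 to 1 when 1 array was left out, with 0 without normoxia replicate 2 and Cfb in place of Itih4 without normoxia replicate 1. With the replicate block Itih4 was at -1.37 (limma adjusted p = 0.0904), and without normoxia replicates 1 and 4 it was at -1.34 (adjusted p = 0.153) while Cfb passed at -2.16 (adjusted p = 0.0359). Differences were negative for 8 members in 19 of the 21 alternatives run on this count. In the other 2 they were negative for 7, as Hp turned to 0.51 with the club marker mean and 0.076 with the fibroblast and smooth muscle mean as a covariate. The companion calls in the wild type, 4, became 2 with the replicate block, with Bcl3 at -0.91 (adjusted p = 0.0574) and Nfkbia at -0.66 (adjusted p = 0.163), and 3 to 5 when 1 array was left out. In Fgf10+/- the 5 companion calls became 3 with the mean of features, 8 with array weights and 2 with the thymocyte covariate. They became 1 with the replicate block (Ltf, none of the 5) and 1 with the club covariate (Spink5, none of the 5). They were 1 to 4 when 1 Fgf10+/- normoxia array was left out, the 1 being Lbp without replicate 1 or 4. With 1 wild-type array left out they were 3 to 6. Fits that left 1 Fgf10+/- hyperoxia array were not read for calls. With the compared groups alone 4 were called in Fgf10+/- (Ltf, Bpifa1, Reg3g and, of the 5, Pigr), with adjusted p of 0.0566 for Cp, 0.0518 for Lbp, 0.0909 for C1ra and 0.111 for Nfkbia, and Nfkbia was lost in the wild type (adjusted p = 0.075). Pigr in Fgf10+/- turned to -0.29 with the mean of its features (adjusted p = 0.785), and in the wild type it was 0.88 (adjusted p = 0.124). With median-centred arrays Nfkbia was lost in the wild type (-0.58, adjusted p = 0.102) and Cp in Fgf10+/- (-2.53, adjusted p = 0.0539). Spink5 was 1.24 (adjusted p = 0.11) without wild-type normoxia replicates 1 and 4. Correlated pairs, 8, became 6 to 12 when 1 array was left out. They became 0 in wild-type hyperoxia alone, where 6 arrays allow too few orderings for a single pair to pass easily. There r turned to -0.36 for Saa1 with Slpi and -0.084 for Cfb with Slpi, and was 0.80 to 0.94 for the 6 pairs of Saa1, Saa3, Cfb and Hp. Over all genes 367 rose and 282 fell in the wild type and 245 and 262 in Fgf10+/-. With median-centred arrays 509 rose and 161 fell in the wild type, and 270 and 167 in Fgf10+/-; the all-gene medians were then 0.03 and 0.06, in place of -0.08 and -0.04. With the replicate block the wild-type counts were 170 and 46. The causes of these shifts were not tested.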
